A study of Gallus gallus with 54 samples.

Results

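The cytosolic ribosome is built from ribosomal RNA and a fixed set of ribosomal proteins, those of the small subunit (RPS genes), which reads the messenger RNA, and those of the large subunit (RPL genes), which joins amino acids. Subunits need their proteins in matched amounts, and the genes are known to be expressed together and strongly in most tissues. Their messenger RNAs are short and abundant, and most begin with a terminal oligopyrimidine tract through which the mTOR pathway controls their translation. Here 72 ribosomal protein genes were followed across 54 RNA-seq libraries of whole chick retina. They were picked by symbol, with earlier results of these data known. They are 72 of the 24599 gene names in the table, 31 of the small and 41 of the large subunit, and all 72 passed the filter on low counts with 15746 genes in all. The symbols RPS4 and RPS4X lie on the same gene (chromosome 4), so the 72 symbols stand for 71 genes, and reads of that pair cannot be told apart. FAU, which encodes a ribosomal protein fused to a ubiquitin-like part, has another kind of symbol and is not among the 72.

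Retinas came from male White Leghorn chicks kept for 6 days on a cycle with 12 h of light. They were assigned to 7 conditions, each collected at 4 h (day 7 after hatching) and 24 h (day 8). Untreated chicks of the same age served as controls. In form-deprivation myopia (FDM) a translucent diffuser covered the eye, which makes it grow too long. In 4 further conditions an eye with a diffuser also received an intravitreal injection of a drug: atropine or pirenzepine, which block muscarinic acetylcholine receptors, ADTN, which activates dopamine receptors, or TPMPA, which blocks GABA-C receptors. The injection was repeated 4 h before collection in the 24 h groups. In recovery the diffuser was worn for 3 days and then removed 4 h or 24 h before collection. The ages given for recovery are also day 7 and day 8, so its 3 days of wear cannot all follow the first 6 days. There were 4 libraries per group, but 3 for untreated at 24 h and for recovery at 4 h. No group with vehicle alone was used here, so drug and injection cannot be told apart. Labels do not tie libraries to birds, so p-values measure the spread between libraries, which may be technical. Photoreceptor genes marked the tissue as retina, with a median of 531 CPM for GNAT2, the transducin of cones (CPM is the count scaled to library size, with TMM factors).

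Ribosomal protein genes took between 0.778% and 1.35% of the total counts of a library, with a median of 0.974%. Total counts, also called depth here, are the sum over 1 transcript for each of the 24599 gene names. They ran from 7.40 to 24.8 M per library (median 14.8 M). The balance between subunits hardly varied, with small-subunit genes at 42.7% to 43.9% of ribosomal protein counts in every library. Per kilobase of the transcript with most counts, the highest mean levels were those of RPL19 (306 CPM per kb), a large-subunit protein, and RPS3A (299 CPM per kb), a small-subunit protein. That order depends on the transcript used. By the densest transcript of each gene RPL6 and RPL27 held 5.38 and 5.09 counts per base, against 4.71 for RPS3A and 4.55 for RPL19. The lowest mean levels per kilobase were those of RPL3L (1.13 CPM per kb), in mammals a paralog of RPL3 found in striated muscle, RPL35A (3.60 CPM per kb) and RPS27L (10.5 CPM per kb), a paralog of RPS27. For RPL35A the mean (2.83 CPM) lay well above the median (1.18 CPM). Whether its 1 transcript entry holds all reads of the gene was not tested.

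The share of ribosomal protein counts followed library depth, both within and between the groups. Across the 54 libraries the share fell with log2 total count (Pearson r = -0.889, Spearman rho = -0.913), and after the group means were removed r was -0.872 (rho = -0.891). Over the 14 group means r was -0.940, and without the 2 libraries farthest from the median depth it was -0.880 over 52 libraries. These are descriptions with no test, because the total count enters both measures. In 11 of the 14 groups the shallowest library had the highest share, in 11 the deepest had the lowest, and in 68 of 78 pairs of libraries of a group the deeper had the lower share.

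**Figure D1:**
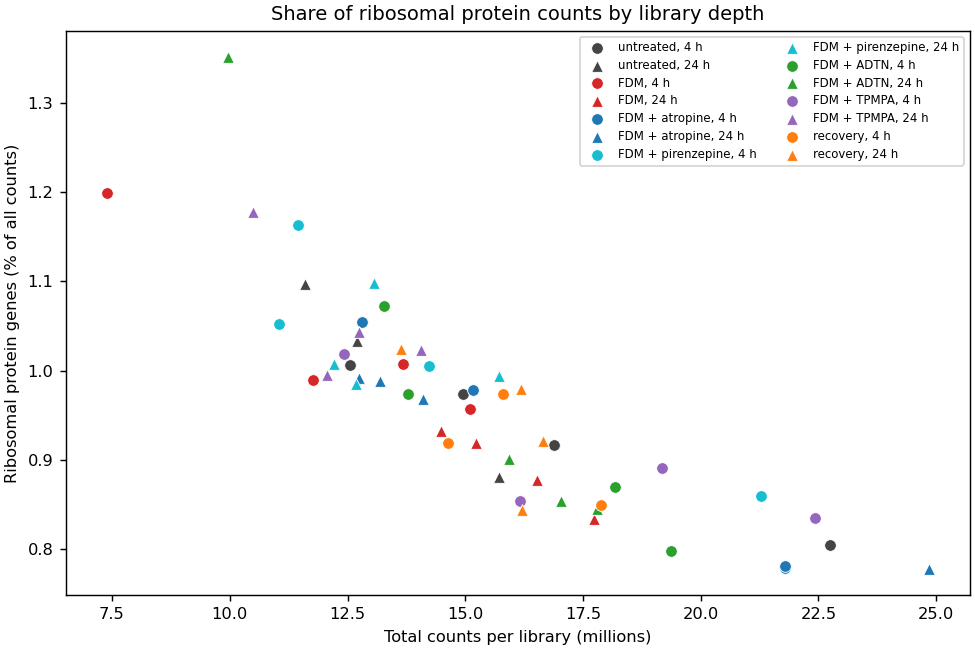
Share of counts in the 72 ribosomal protein genes (vertical axis, percent) against total counts per library (horizontal axis, M), 1 point per library, coloured by condition, with circles for 4 h and triangles for 24 h. The share falls from 1.35% and 1.20% in the 2 shallowest libraries to 0.778% in the deepest, and points of different conditions lie along the same band.

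For each gene a depth slope was fitted in the edgeR model with 14 group means and the log2 total count as a covariate. A slope of 1 means that counts within groups are proportional to the TMM-scaled library size. A slope of 0 means that they do not change with depth apart from the TMM factor. That factor was 0.953 in the shallowest library and 1.08 in the deepest. With total counts alone as the scale, the median slope of the 72 genes was 0.549. The slopes of 68 of the 72 ribosomal protein genes lay below 1 at an adjusted p under 0.05 (quasi-likelihood test, Benjamini-Hochberg over 15746 genes), where 6.12% of all genes did. None lay above 1, where 1.67% of all genes did. The median slope was 0.470 (quartiles 0.413 and 0.560), against 1.03 over all genes. The medians were 0.469 for the small and 0.471 for the large subunit. The sources used here do not say whether duplicate reads were removed before counting, and that step's part in the slopes was not tested.

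Among small-subunit genes RPS3A had the lowest slope of all members, 0.294 ± 0.037 (SE, adjusted p = 2.1e-20). RPS6 stood at 0.387 ± 0.032 and RPSA, which is also known as the laminin receptor, at 0.458 ± 0.043. RPS6 is the small-subunit protein phosphorylated by S6 kinase downstream of mTOR. RPS27A, made as a fusion with ubiquitin, had a slope of 0.566. In the large subunit RPL19 (0.315 ± 0.044) and RPL37A (0.336) were lowest, with RPL4 at 0.406 and RPL3, which lies near the peptidyl transferase centre, at 0.479. The stalk proteins, which recruit the translation factors that hydrolyse GTP, ran from 0.342 for RPLP1 through 0.446 for RPLP0 to 0.583 for RPLP2.

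The 4 genes that did not pass the test included 3 of low counts and 1 abundant paralog. RPL7L1, a paralog of RPL7 known in mammals and yeast (where it is named Rlp7) from ribosome assembly, had a slope of 0.984 ± 0.051 (adjusted p = 0.899) at 102 ± 6.64 CPM (SD over 54 libraries). RPL7 itself had a slope of 0.379 at 211 CPM. RPS27L (0.960 ± 0.143), RPL3L (1.20 ± 0.27) and RPL35A (1.22 ± 0.74) had wide errors, with lowest counts of 39, 4 and 2 in a library. RPL12, a large-subunit protein at the base of the stalk, had the highest slope among those called, 0.739 ± 0.052 (adjusted p = 0.00022). RPL22 and its paralog RPL22L1 had slopes of 0.547 and 0.663.

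The raw counts show a like pattern in a pair of libraries, which also differ in treatment, time and age. The shallowest, FDM at 4 h replicate 2, and the deepest, atropine at 24 h replicate 3, differed 3.36 times in total counts but 2.18 times in ribosomal protein counts. RPS3A (chromosome 4, 33489913 to 33493304, galGal5) had 3040 counts in the shallowest and 5401 in the deepest library, a ratio of 1.78. For RPS6 (chromosome Z, 33736468 to 33740954) the counts were 2662 and 5332, a ratio of 2.00. For RPLP0 (chromosome 15, 9481487 to 9484157) they were 2524 and 5348, a ratio of 2.12. RPL7L1 (chromosome 4, 54895203 to 54898941) went from 660 to 2504 counts, a ratio of 3.79, above that of the totals. The ratio of its CPM, which includes the TMM factors, was 0.999. These are the deposited counts of 1 transcript per gene, before any scaling.

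**Figure D2:**
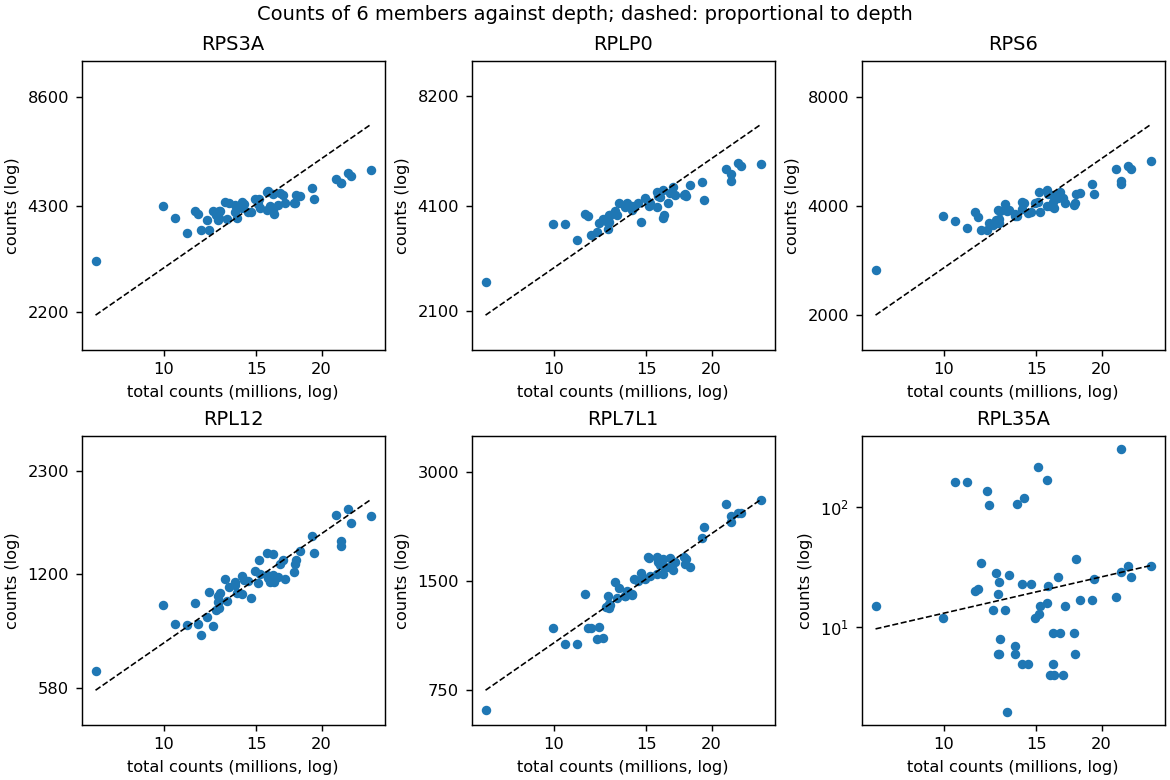
Counts of 6 ribosomal protein genes (vertical axes, log scale) against total counts per library (horizontal axes, M, log scale), 1 point for each of 54 libraries; dashed lines are proportional to depth. RPS3A, RPLP0 and RPS6 lie above the line in shallow libraries and below it in deep ones, RPL12 less so, RPL7L1 runs along it, and RPL35A scatters from 2 to 300 counts.

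Count density moved with the slope. The median ribosomal protein gene held 2.42 counts per base of transcript per library, in a table whose median gene held 0.232 and whose densest held 12.2. Of the 72 genes, 3 were among the 100 densest of all genes, 40 among the 400 densest and 52 among the 800 densest. Within the members, density and slope had a Spearman rho of -0.605 (72 genes, which share libraries and are not independent). Low slopes were shared by other dense genes. Among the 100 densest, all 97 other genes also passed below 1 (100%), with a median slope of 0.388 against 0.315 for the 3 members.

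At density ranks 101 to 6400 the members stood below the other genes of the same rank. At density ranks 101 to 200 the median slope was 0.411 for 19 members and 0.556 for 81 others, of which 95.1% passed below 1. At ranks 401 to 800 it was 0.473 for 12 members and 0.802 for 388 others, of which 63.4% passed. At ranks 801 to 1600 it was 0.536 for 10 members, all of them called, and 0.907 for 790 others, of which 26.7% passed. RPS15A, for example, had a slope of 0.389 ± 0.039 at 1.00 counts per base, and RPL7L1 had 0.984 at 1.01. That likeness in density depends on the transcript used, which for RPS15A had 1562 bases. By the densest transcript RPS15A held 2.88 counts per base and RPL7L1 1.07. At the lowest density, ranks 6401 to 15746, it was 1.20 for 3 members and 1.08 for 9343 others. These medians are descriptions. With the densest transcript of each gene in place of the one with most counts, the median member slope was 0.466, but the members moved to denser ranks. Ranks 801 to 1600 then held 1 member and ranks 3201 to 6400 held 0. At ranks 1 to 100 the medians were 0.362 for 6 members and 0.367 for 94 others. At ranks 101 to 200 they were 0.429 for 24 members and 0.533 for 76 others. At ranks 401 to 800 they were 0.549 for 8 members and 0.781 for 392 others.

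**Figure D3:**
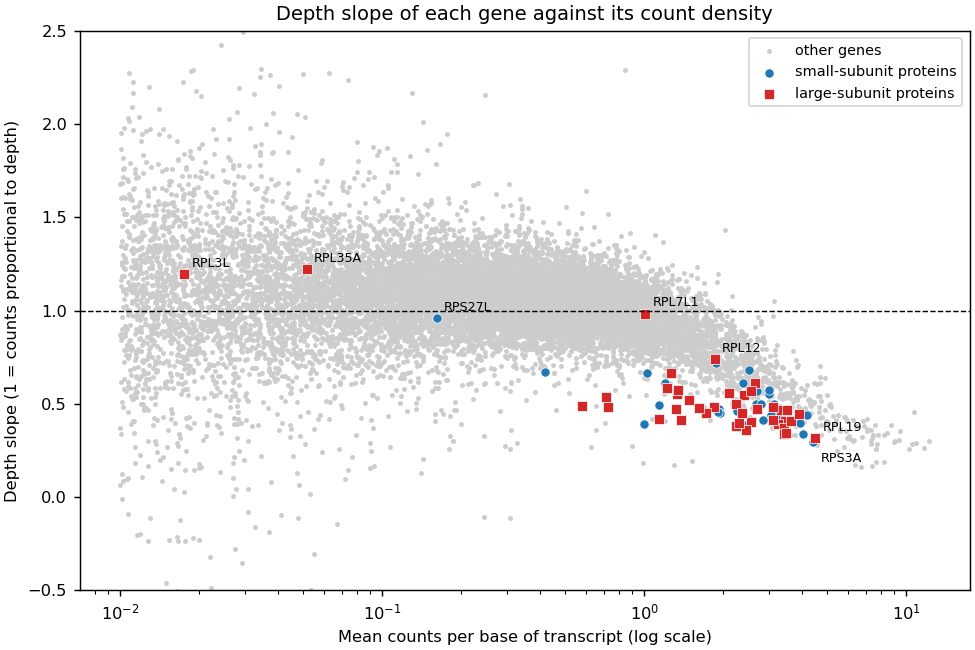
Depth slope (vertical axis) against mean counts per base of transcript (horizontal axis, log scale). The dashed line at 1 stands for counts proportional to the TMM-scaled library size. Other genes are grey, small-subunit proteins blue circles and large-subunit proteins red squares. Genes under 0.01 counts per base or outside the vertical range are not drawn; most members lie at the right and below the grey cloud of the same density, while RPL7L1, RPS27L, RPL3L and RPL35A lie near or above 1.

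Other lists of translation genes held smaller shares of low slopes, where 6.12% of all genes lay below 1 and 1.67% above. Of 67 mitochondrial ribosomal protein genes, 0 passed the same edgeR test in either direction (median slope 0.966, median density 0.449 counts per base), and 7 had an unadjusted p under 0.05. DESeq2 was not run on slopes. Of 10 genes listed under elongation and termination, TPT1 and EEF2K among them, 5 had slopes below 1 and 1 above (EEF2K, 1.30). EEF1A1, which delivers transfer RNA to the ribosome, had 0.302 and TPT1, whose messenger RNA carries an oligopyrimidine tract, 0.333, both at over 3 counts per base (6.28 and 3.62). Of 34 initiation factors 14 were below 1, led by EIF4A2 (0.378, 4.54 counts per base). Of 47 ribosome assembly genes 2 were below 1, NPM1 (0.676) and NCL (0.749). FAU had a slope of 0.598. Outside translation, 7 of 12 photoreceptor genes (median slope 0.646) and 4 of 7 glial genes (0.633) were below 1. Of 14 inner retinal genes 3 were (1.08). The lists also differed in density. Its median was 2.93 counts per base for photoreceptor, 2.91 for glial and 0.805 for inner retinal genes. It was 1.61 for elongation and termination, 1.03 for initiation and 0.316 for assembly. At density ranks 3201 to 6400, where the mitochondrial median lies, 0.782% of other genes passed below 1. The lists were not compared at like density.

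Members moved together from library to library. Within groups, the log2 CPM values of 2 ribosomal protein genes had a median correlation of 0.894 over 2556 pairs of genes, against 0.220 for mitochondrial ribosomal protein genes and 0.113 for assembly genes. With depth removed as well the median was 0.638, against 0.225 and 0.134. RPL27 followed the other members most closely with depth removed (mean level of the rest, r = 0.943). RPL35A (0.013), RPS14 (0.306), RPS27L (0.308) and RPL22L1 (0.311) followed them least. With group and depth removed, the level of the members and that of the mitochondrial ribosomal protein genes had r = 0.70. These correlations over 54 libraries are descriptions. The mitochondrial and assembly lists hold fewer counts per base (medians 0.449 and 0.316, against 2.42 for the members). Genes of like density were not set beside the members, and RPS4 and RPS4X share reads.

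RPL35A behaved unlike any other member. It had at least 100 counts in 9 libraries, where it ran from 104 to 300, and at most 37 in the other 45, where its median was 15. The 9 libraries were spread over 6 groups: FDM at 4 h (1 library), atropine at 4 h (1), pirenzepine at 4 h (2), ADTN at 4 h (1), pirenzepine at 24 h (2) and TPMPA at 24 h (2). In no group were all libraries high. The gene (chromosome 9, 15170655 to 15173497) had 1 transcript entry of 786 bases in the table.

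The design compares FDM with untreated retina, each drug with FDM alone, and recovery with untreated retina at each time. No ribosomal protein gene passed the threshold in any of these 12 comparisons, by edgeR or by DESeq2. The smallest adjusted p in a comparison lay between 0.107 and 0.729 (edgeR quasi-likelihood test). Yet in most comparisons nearly all members leaned the same way. The median log2 change had the opposite sign to the log2 ratio of the groups' geometric mean depths in 11 of the 12. For atropine at 24 h, among the 11, that ratio was -0.03. By arithmetic mean, however, the atropine group was the deeper (16.2 M against 16 M). FDM served as the control of 4 drug groups at each time, so those comparisons share its libraries.

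At 4 h FDM was the shallowest group, with a mean of 12.0 M counts. Against untreated retina (16.8 M), where 0.171% of all genes passed, 68 of 72 members had a higher fitted level, with a median of 0.20 on the log2 scale, 0 passing and 2 at an unadjusted p under 0.05 (6.97% of all genes). Against FDM, atropine (17.9 M) had 68 of 72 members lower and a median of -0.27. There 0 members passed, where 1.17% of all genes did, and 37 had an unadjusted p under 0.05, where 11.8% of all genes did. TPMPA (17.5 M) had 69 lower and a median of -0.22, with 0 passing against 0.47% of all genes and 11 at an unadjusted p under 0.05 against 14.5%. ADTN (16.2 M) had 67 lower and a median of -0.17, with 0 passing against 0.756% and 2 unadjusted against 14.7%. Pirenzepine (14.5 M) had 58 lower and a median of -0.06, with 0 passing against 2.09% and 0 unadjusted against 14%. Recovery against untreated retina, at like depth (16.1 M), had 34 higher and 38 lower and a median of -0.01, with 0 passing against 0.0381% and 0 unadjusted against 7.01%.

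RPS6 shows the 4 h values. Its CPM was 250, 215, 274 and 293 in untreated retina, 280, 378, 268 and 299 in FDM, and 206, 204, 284 and 303 with atropine. The FDM library of 378 CPM is the shallowest of the series, the other 3 lie within or just above the untreated range, and the atropine libraries split into 2 deep ones of lower and 2 shallower ones of higher level. The change was 0.25 ± 0.14 (SE) for FDM against untreated (adjusted p = 0.77) and -0.30 ± 0.14 for atropine against FDM (adjusted p = 0.389, edgeR quasi-likelihood test). RPL19 had the lowest change of any member with atropine, -0.42 ± 0.16 (adjusted p = 0.239). Without FDM replicate 2 the median change of FDM against untreated was 0.11, and against FDM it was -0.18 for atropine, -0.14 for TPMPA and -0.09 for ADTN. The median for pirenzepine was 0.03 without pirenzepine replicate 1 and -0.13 without its replicate 2. That for recovery ran from -0.08 without untreated replicate 2 to 0.05 without untreated replicate 4.

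At 24 h FDM was deeper (16 M) than untreated retina (13.3 M), and 69 of 72 members were lower, with a median of -0.17. Of all genes 0% passed there, 0 members passed, and 1 member (RPS27, unadjusted p = 0.0107) was under 0.05, where 7.21% of all genes were. TPMPA (12.3 M) against FDM had 69 of 72 higher and a median of 0.25, the largest at 24 h. Again 0 members and 0% of all genes passed, and 29 members had an unadjusted p under 0.05, where 11.7% of all genes did. Pirenzepine (13.4 M) had 70 higher and a median of 0.19, with 0 passing against 1.63% of all genes and 6 unadjusted against 11.9%. ADTN (15.2 M) had 70 higher and a median of 0.14, with 0 passing against 0.0381% and 3 unadjusted against 7.86%. That median turned to -0.06 without ADTN replicate 4, the second shallowest library of the series. Atropine (16.2 M) had 51 higher and a median of 0.04, with 0 passing against 0.0953% and 0 unadjusted against 13.3%. Recovery (15.7 M) against untreated retina had 68 lower and a median of -0.12, with 0 passing against 0.654% and 0 unadjusted against 12.3%. Without untreated replicate 3 the median was -0.10 for FDM and -0.06 for recovery against untreated, and without untreated replicate 1 it was -0.26 and -0.21. The median for atropine was 0.14 without atropine replicate 3 and -0.02 without its replicate 1.

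With TPMPA at 24 h the groups separated completely for many members. In 52 of 72 every TPMPA library lay above every FDM library, where 4.78% of all genes did so. RPS6 had 356, 294, 290 and 289 CPM with TPMPA and 258, 271, 234 and 249 CPM with FDM. The 2 ranges do not overlap, and the change was 0.28 ± 0.14 (adjusted p = 0.43, edgeR quasi-likelihood test). RPL22 (chromosome 21, 624162 to 626856) had 96.5, 81.8, 88.8 and 89.0 CPM with TPMPA and 69.7, 74.3, 69.2 and 71.0 CPM with FDM, again without overlap, a change of 0.33 ± 0.12 (adjusted p = 0.288). RPLP0 overlapped, with 358, 295, 305 and 287 CPM against 280, 296, 255 and 248 CPM. RPL7L1 leaned the other way, with a change of -0.08 ± 0.07 (adjusted p = 0.686). When the libraries were brought to a common depth with each gene's fitted slope, 11 members separated, where 3.49% of all genes did. The depths of the 2 groups do not overlap either (10.5 to 14.1 M against 14.5 to 17.7 M).

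A fit of those 2 groups alone called 15 of 72 members higher with TPMPA, where 0.764% of 14258 genes were called higher, RPL22 among the 15 (0.33, adjusted p = 0.0322). Vessel and pecten markers moved with the same contrast. Their summed level over 17 measured genes ran from 355 to 461 CPM with TPMPA and from 398 to 641 CPM with FDM, and 0 of the 17 were at 0 in all libraries. Of the 17, 15 were lower with TPMPA, with a median log2 change of -2.30. There 0 passed (edgeR), where 0% of all genes did, and 12 had an unadjusted p under 0.05, where 11.7% of all genes did. Since whole tissue was measured, fewer cells of a type and less RNA per cell cannot be told apart.

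Without depth as a covariate, the same markers leaned against the ribosomal protein genes elsewhere too. In 11 of the 12 comparisons the median member change and the median marker change then had opposite signs. With depth as a covariate they had the same sign for FDM against untreated (-0.07 and -0.71) and for atropine (0.04 and 1.68) at 4 h. For pirenzepine at 4 h they had opposite signs (0.08 and -1.14). Signs with depth were not counted over the 12 comparisons. All 17 markers had a higher fitted level for FDM against untreated at 24 h (median 2.84, 11 at an unadjusted p under 0.05), for recovery against untreated at 24 h (3.89, 15 unadjusted), for ADTN at 4 h (2.498, 11 unadjusted) and for TPMPA at 4 h (1.34, 4 unadjusted), and 16 had one for atropine at 4 h (1.84, 5 unadjusted). In these 5 comparisons 0 to 1 marker passed (edgeR), where in the same order 0%, 0.654%, 0.756%, 0.47% and 1.17% of all genes did. The shares of all genes at an unadjusted p under 0.05 were 7.21%, 12.3%, 14.7%, 14.5% and 11.8%. With a vessel score as a covariate the median member change was 0.16 for TPMPA at 24 h in place of 0.25, -0.07 for FDM against untreated at 24 h in place of -0.17, and -0.09 for ADTN at 4 h in place of -0.17. It turned to 0.02 for recovery against untreated at 24 h and to -0.01 for atropine at 24 h. In these and the other main comparisons the shift was smaller than the pooled SD of the member level in the groups compared. Vessel score and group are partly confounded, with a mean score of 1.69 in untreated and 3.47 in FDM at 24 h. The covariate may therefore take up a difference between groups as well.

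Pirenzepine at 24 h separated completely from FDM for 43 members, all higher, where 4.17% of all genes were. At a common depth 2 members did, where 3.95% of all genes did. The 2 groups' depths overlap (12.2 to 15.7 M with pirenzepine). RPL22L1, a paralog that can stand in for RPL22 in mouse, had the smallest adjusted p of any member in any main comparison. Its CPM was 40.7, 51.2, 51.2 and 61.0 with pirenzepine and 40.7, 38.5, 39.4 and 36.4 with FDM. One pirenzepine library lies at the top of the FDM range and the other 3 above it, a change of 0.40 ± 0.13 (adjusted p = 0.107). With depth as a covariate the change was 0.31 ± 0.11 (adjusted p = 0.144), and without pirenzepine replicate 1 it was 0.49 (adjusted p = 0.026, edgeR). Replicate 1 is the pirenzepine library at the top of the FDM range. Of 8 omissions of a library in this comparison, only this 1 brought a member past the threshold.

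RPL35A gave the highest or lowest change of a member in many comparisons, among them 3.14 ± 1.02 for TPMPA at 24 h (adjusted p = 0.263), 2.60 ± 1.00 for pirenzepine at 24 h (adjusted p = 0.235), 2.19 ± 0.99 for FDM at 4 h (adjusted p = 0.66) and -2.38 ± 0.99 for TPMPA at 4 h (adjusted p = 0.256, edgeR quasi-likelihood test). Each rests on 1 or 2 of the 9 libraries of high count. RPL3L, RPS27L, RPL5, RPS14 and RPS21 gave the remaining extremes beside RPL19, with none past the threshold.

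**Figure D4:**
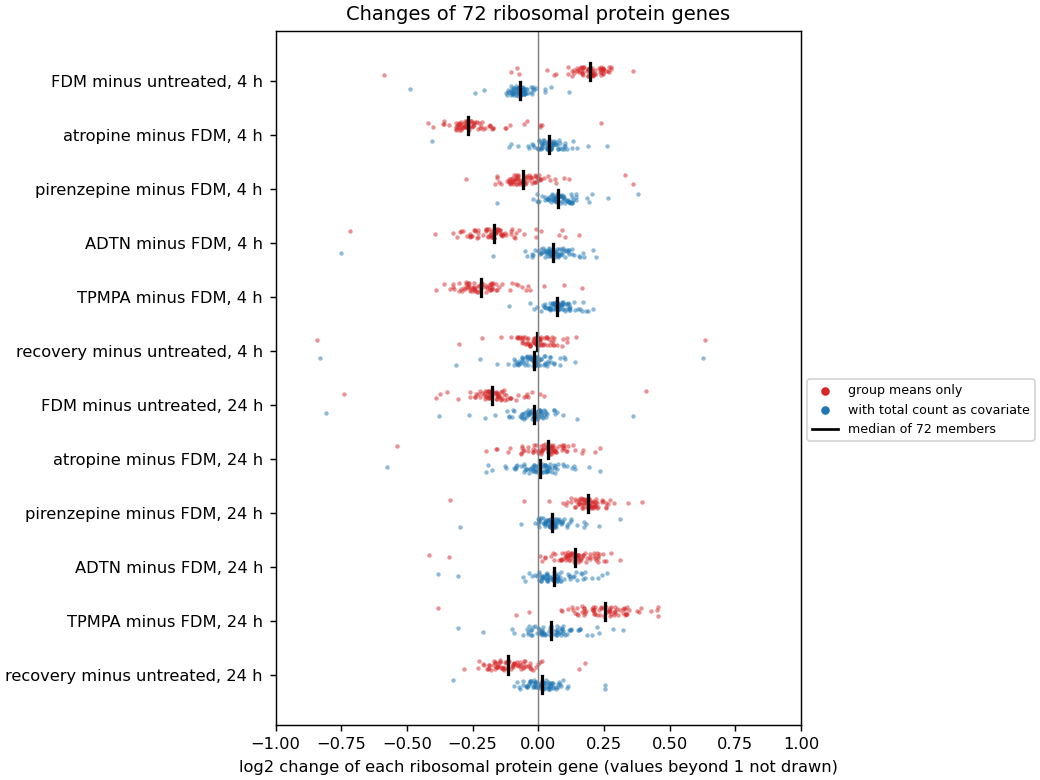
Log2 change of each of 72 ribosomal protein genes (horizontal axis) in the 12 main comparisons (vertical axis), from the fit with group means only (red) and with total count as a covariate (blue); black bars are medians, and values beyond 1 are not drawn. The red clouds lie between medians of -0.27 and 0.25, and the blue ones within 0.08 of 0.

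With the log2 total count as a covariate the medians shrank to between -0.07 and 0.08. No member passed in this fit (edgeR), with 0 to 8 at an unadjusted p under 0.05, where 5.33% to 16.3% of all genes were. Of all genes, 0.0508% passed with depth as a covariate for FDM, 0.972% for atropine, 2.6% for pirenzepine, 0.368% for ADTN, 0.216% for TPMPA and 0.0508% for recovery at 4 h. At 24 h, in the same order, 0%, 0.102%, 1.68%, 0.0508%, 0.0127% and 0.66% did. For FDM against untreated at 4 h the median went from 0.20 to -0.07, and 5 of 72 members in place of 68 were above 0. For atropine at 4 h it went from -0.27 to 0.04, for TPMPA at 4 h from -0.22 to 0.07, for TPMPA at 24 h from 0.25 to 0.05 and for pirenzepine at 24 h from 0.19 to 0.05. TPMPA at 24 h was the comparison with 8 members at an unadjusted p under 0.05, where 9.6% of all genes were. The median SE of a member fell from between 0.137 and 0.148 to between 0.067 and 0.074. The 95% interval lay within 0.5 of 0 on the log2 scale for 66 to 70 members in each comparison. Without the covariate it did for 23 to 69. Both the size of the change and the SE enter that count. For atropine at 4 h it went from 23 to 69, and for pirenzepine at 4 h from 69 to 70. Depth and group are partly confounded in these comparisons, so a covariate may take up a difference between groups as well.

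Changes of the same groups at 24 h and 4 h were set against each other by a test of the difference itself. For TPMPA against FDM the median difference was 0.46 on the log2 scale, with 70 of 72 members higher. Of all genes 0% passed and 0 members did, with 59 at an unadjusted p under 0.05 (14.6% of all genes, edgeR). For FDM against untreated it was -0.36, with 71 lower, 0% of all genes and 0 members passing, and 21 at an unadjusted p under 0.05 (9.08% of all genes). With the total count as a covariate these medians were -0.03 and 0.05. DESeq2 was not run on these differences.

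By mean share the 14 groups ran from 1.06% ± 0.081 (SD, n = 4) for TPMPA at 24 h, through 1.04% ± 0.109 for FDM at 4 h, 1.02% ± 0.052 and 1.02% ± 0.126 for pirenzepine at 24 h and 4 h, 1.00% ± 0.111 (n = 3) for untreated at 24 h and 0.988% ± 0.244 for ADTN at 24 h. Then came recovery at 24 h (0.942%), atropine at 24 h (0.932%), ADTN at 4 h (0.929%), untreated at 4 h (0.925%), recovery at 4 h (0.914%), TPMPA at 4 h (0.900%), atropine at 4 h (0.898%) and FDM at 24 h (0.891% ± 0.044). No neighbours in this order differ by more than their SD. The 5 groups of highest share are the 5 of lowest mean depth. At a common depth the median member level of the groups lay between -0.06 (FDM at 4 h) and 0.03 (pirenzepine at 4 h) of their mean on the log2 scale.

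**Figure D5:**
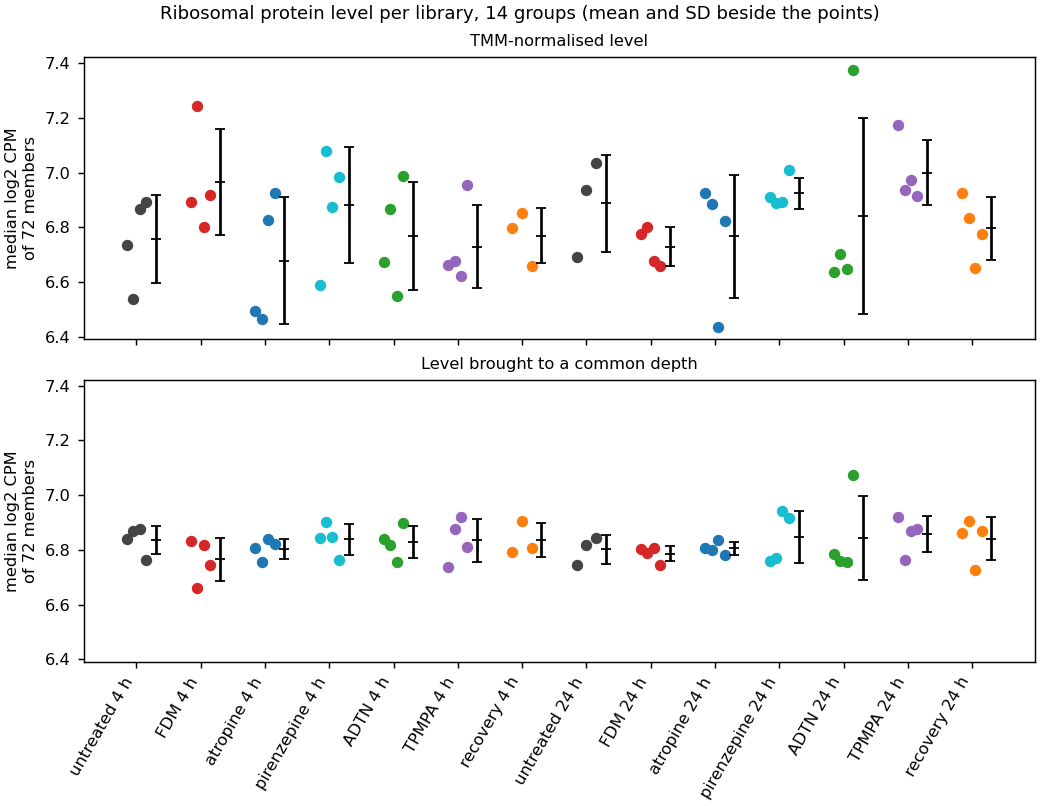
Median log2 CPM of the 72 ribosomal protein genes per library (points) in the 14 groups, with mean and SD (n = 3 or 4) beside them, after TMM scaling (upper panel) and after each gene was brought to a common depth with its fitted slope (lower panel). The spread between and within groups is smaller in the lower panel, where ADTN at 24 h replicate 4 remains the highest point.

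Genes that make, feed or regulate ribosomes were read from lists chosen with earlier results in view. In at least 1 of the 12 main comparisons 1 of 67 mitochondrial ribosomal protein genes rose (edgeR). So did 1 of 10 genes listed under elongation and termination and 1 of 47 assembly genes. Of 25 genes of mTOR signalling 1 fell. Of 34 initiation factors 0 passed (edgeR), with 0 to 7 of them at an unadjusted p under 0.05 in a comparison. Of all genes, 2.09% passed for pirenzepine at 4 h, 1.63% for pirenzepine at 24 h and 0.171% for FDM at 4 h, and 6.97% to 14.7% had an unadjusted p under 0.05 over the 12 comparisons. ETF1, the factor that releases the finished protein at a stop codon, rose with pirenzepine at 4 h by 0.87 ± 0.17 on the log2 scale, to 235 ± 59.4 from 128 ± 9.77 CPM (SD, n = 4, adjusted p = 0.00157), and at 24 h by 0.75 ± 0.17 (adjusted p = 0.00642). MRPL37, of the mitochondrial large subunit, rose with pirenzepine at 4 h by 0.35 ± 0.10 (adjusted p = 0.0431), and so did NOP14, a small-subunit assembly factor, by 0.42 ± 0.11 (adjusted p = 0.0366). In that comparison 44 of the 47 assembly genes had a higher fitted level, with a median of 0.16 without and with depth as a covariate. An unadjusted p under 0.05 was reached by 16 of them (edgeR), where 14% of all genes reached it. SESN2, known in mammals as a leucine sensor that restrains mTOR, fell with FDM at 4 h by 2.67 ± 0.62, to 1.17 ± 0.417 from 7.67 ± 7.52 CPM (adjusted p = 0.048; 0.0791 with depth as a covariate). The other 3 genes also passed with depth as a covariate. The median change of 67 mitochondrial ribosomal protein genes lay between -0.08 and 0.13 in the 12 comparisons.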

How the data were processed

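The deposited values are raw counts by the authors, 1 per Ensembl transcript and library, in 38118 transcript entries. Per the submitters' processing notes, Trimmomatic 0.36, HISAT2 2.1, HOMER, edgeR and limma were used with the genome build galGal5; roles and any removal of duplicate reads: not given in the sources used here. Per the labels' protocols, RNA of integrity number above 7.0 was read in pairs for 75 cycles on a NextSeq 500, from a directional kit. Deposited transcript lengths and coordinates (a unit other than counts) gave counts per base and positions.

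Members are symbols of RPL or RPS with a number, plus RPSA and RPLP0 to RPLP2, without RPS6 kinases. For each gene name the transcript with the largest summed count was used (24599 names; 321 entries carried the members' symbols); transcripts of a gene share reads. After filterByExpr (minimum count 10, minimum total 15), counts of 15746 genes were TMM-scaled and entered a robust quasi-likelihood fit (edgeR 4.0.16, R 4.3.3) with a mean for each of 14 groups. Tests are two-sided, adjusted by Benjamini-Hochberg over 15746 genes, threshold 0.05. SE is the log2 change over the square root of F. The depth slope is 1 plus the coefficient of centred log2 total count, in a fit scaled to the TMM-scaled library sizes. The fit was tested on simulated data. Replicate numbers were not used to pair the libraries in the main fit. Alternatives included DESeq2 1.42.0, other scalings, fits of 2 groups, covariates and omission of each library. Genes were named by rule: the extremes of change, density and slope, and a fixed set with RPS6, RPSA, the stalk proteins and paralogs; RPL7, RPS15A, RPL27, RPS14 and RPS27 were added for their values. The members and lists were chosen with earlier results of these data known. A few genes are not reported here.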

Additional observations from a re-analysis of the deposited data

Results flagged for a closer look

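Library values were checked in the 12 groups of 4 for 8 measures: the share of ribosomal protein counts, the small-subunit share of these, and the CPM of RPS3A, RPLP0, RPS6, RPSA, RPL7L1 and RPL22L1. Of 96 sets of 4 libraries, 11 held a library far from the other 3 (by Dixon's gap over range); chance flags about 1 in 20, and the measures are not independent.

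ADTN at 24 h replicate 4 was highest in 5 measures: a share of 1.35% (others 0.845% to 0.901%), RPS3A at 434 CPM (251 to 270), RPS6 at 377 CPM (233 to 250), RPSA at 358 CPM (236 to 249) and RPL22L1 at 62.4 CPM (39.8 to 43.4). Its total of 9.97 M was the lowest of its group. With group and depth removed its median member level was still 0.20 above 0 on the log2 scale. Mitochondrial ribosomal protein genes were also highest there of all 54 libraries, at a summed 2625 CPM (2009 to 2050 in the other 3 of its group). Atropine at 24 h replicate 3, the deepest library of the series, was lowest in share at 0.778% (others 0.969% to 0.992%), in RPLP0 at 199.8 CPM (281 to 297) and in RPSA at 199 CPM (274 to 288). FDM at 4 h replicate 2, the shallowest, was highest in RPSA at 358 CPM (272 to 278). RPSA was also highest in TPMPA at 4 h replicate 4 at 292 CPM (226 to 233), and RPS6 in TPMPA at 24 h replicate 1 at 356 CPM (289 to 294). Each was the shallowest library of its group.

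Opposite movements at 4 h and 24 h appeared in 2 contrasts of the share. Every FDM library lay above the untreated mean at 4 h (mean difference 0.113 percentage points) and below it at 24 h (-0.113). Every TPMPA library lay below the FDM mean at 4 h (-0.138) and above it at 24 h (0.169). The difference in share was not tested; mean depth moved the opposite way in all 4 cases.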

How the results depend on the processing

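The depth slopes kept their side of 1, with 66 to 68 members passing in the alternatives in which slopes were fitted. Slopes were not fitted with DESeq2, in the fits of 2 groups or with scalings other than the main one and total counts alone. The median was 0.549 with total counts alone and 0.486 with a replicate block. With each library left out it ran from 0.445 (without FDM at 4 h replicate 2) to 0.518 (without ADTN at 24 h replicate 4). Thinning every library at random to the shallowest total, chosen after seeing the data, gave 0.459 with the total before thinning as the covariate. Random thinning keeps each gene's expected share of a library, so a like value had to follow. That fit therefore adds nothing about the slopes. With the total count as a covariate (and, in parentheses, with the replicate block too) the median changes were, at 4 h, -0.070 (-0.065) for FDM against untreated, 0.042 (0.035) for atropine, 0.054 (0.053) for ADTN and 0.073 (0.067) for TPMPA against FDM, and at 24 h -0.016 (-0.024) for FDM against untreated, 0.051 (0.055) for pirenzepine and 0.050 (0.054) for TPMPA; the cause was not tested. Counts of members passed stayed at 0 except 15 for TPMPA at 24 h with only the 2 groups compared, where fewer libraries set the spread, and 0 to 1 for pirenzepine at 24 h with each library left out. The block changed no other call. Same-numbered libraries correlated between -0.11 and 0.42, which cannot settle whether their numbers pair them. They were not treated as pairs in the main fit. Leaving out 1 library turned the median of 4 comparisons: ADTN at 24 h (-0.06 to 0.20), atropine at 24 h (-0.02 to 0.14), pirenzepine at 4 h (-0.13 to 0.03) and recovery at 4 h (-0.08 to 0.05). Changes of 10 genes were followed singly (RPS3A, RPS6, RPSA, RPS27L, RPLP0, RPL3L, RPL7L1, RPL22, RPL22L1 and RPL35A), with the depth slopes of these and some further members. Of these values, 4036 kept their call, and those called in neither fit lay within the SE of the main value. Such an uncalled value may have changed sign. Another 117, uncalled in both fits, moved by more than that SE, and 2 came to pass, RPL22 and RPL22L1. Low counts limit RPL3L and RPS27L, with 4 and 39 counts in their lowest libraries.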
